A study of Mus musculus with 3 samples.

Results

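Tuft cells are rare chemosensory cells of the gut epithelium. Pou2f3 is the transcription factor that their lineage depends on, Trpm5 is the cation channel at the end of their taste-type signalling, and Avil (advillin) and Dclk1 are a cytoskeletal protein and a kinase widely used to recognise them. They secrete IL-25 and, through Alox5ap, Ltc4s and Ptgs1, make leukotrienes and prostaglandins that act on the immune cells below the epithelium. The 9 genes described here are these 8, counting Il25, together with Sh2d6, an adaptor with an SH2 domain. They were chosen by their symbols from the 32285 genes of the count matrices, with their levels in the 3 libraries already known, so their values are descriptions.

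The sc-RNAseq data came from mouse colon organoids, which are cultures of colonic epithelium without the other cells of the gut wall. There were 3 libraries, 1 of untreated organoids, 1 of organoids exposed to IFN-γ for 24 h and 1 of organoids exposed for 48 h, all grown in the same full medium with growth factors and sorted for live cells. The methods name C57bl/6 mice and a pair of tdTomato reporter strains as sources of organoids, without saying which gave these cultures. The paper's results describe its organoids in full medium as derived from untreated wild-type mice, and do not restate this for the sequenced ones. The methods do not tie the libraries to separate animals, and with 1 library per condition no test between conditions was possible. Every interval below is an exact 95% interval for the error of counting molecules and says nothing of the spread between cultures, and both IFN-γ libraries were compared with the same untreated library.

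Cells were kept when they held at least 5000 unique molecular identifiers (UMIs, each standing for 1 captured transcript), a minimum of 400 detected genes and a mitochondrial share of no more than 15%. The untreated library kept 1058 cells, the 24 h library 917 and the 48 h library 2934, which held 47243500 to 71077817 UMIs per library. A typical cell was much deeper at 24 h (median 68784 UMIs) than in the untreated (33550) or the 48 h library (10772). Levels are given as CPM, the UMIs of a gene per 1000000 UMIs of the pooled cells of a library. At most 4 barcodes were shared by any pair of libraries. The interferon genes checked were higher in all 8 of 8 cases at both times, with Gbp2 going from 2 UMIs to 40550 at 24 h and 30176 at 48 h. The 14 immune markers summed to 0.774 to 1.65 CPM and the 8 stromal markers to 0.450 to 1.89, and Ptprc, the pan-leukocyte marker, and Tyrobp were at 0 throughout. Whether non-epithelial cells had a part in any value below was not tested.

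Pou2f3 was detected in all 3 libraries, but no group of tuft cells was. The defining genes of the tuft programme were nearly absent. Plcb2 and Sh2d7 (signalling proteins) and Hmx3 and Sucnr1 had no UMI in any library, which allows up to 0.0602 CPM in the untreated cells. Gfi1b, a transcription factor of tuft cells, had 0, 0 and 1 UMI in the untreated, 24 h and 48 h libraries, and the taste G protein Gnat3 had 1, 0 and 0. These data therefore hold transcripts of single tuft genes, and the label of the gene set does not name a cell population in these organoids.

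Pou2f3 had 70 UMIs in the untreated cells, 321 at 24 h and 209 at 48 h, that is 1.41 CPM (1.10 to 1.78), 4.52 (4.04 to 5.04) and 4.42 (3.84 to 5.07). Both IFN-γ libraries were above the untreated one, with intervals that did not overlap, and the 2 treated times lay close together. The fold to untreated was 3.21 at 24 h (2.47 to 4.22) and 3.15 at 48 h (2.39 to 4.19). The 48 h level over the 24 h level was 0.980 (0.819 to 1.17).

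Avil was also higher in both IFN-γ libraries, at a lower count. It had 15 UMIs without IFN-γ, 61 after 24 h and 44 after 48 h, or 0.301, 0.858 and 0.931 CPM. The fold to untreated was 2.85 at 24 h (1.60 to 5.40) and 3.09 at 48 h (1.69 to 5.98). With every cell weighted equally, as the mean over cells of the level in each, the 48 h log2 ratio of Avil fell to 0.68 from 1.63. Avil lies on chromosome 10 (127000709 to 127020994, plus strand, GRCm38) and overlaps Tsfm on the other strand, whereas Pou2f3 on chromosome 9 (43123939 to 43210369, minus strand) overlaps no annotated gene.

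**Figure D1:**
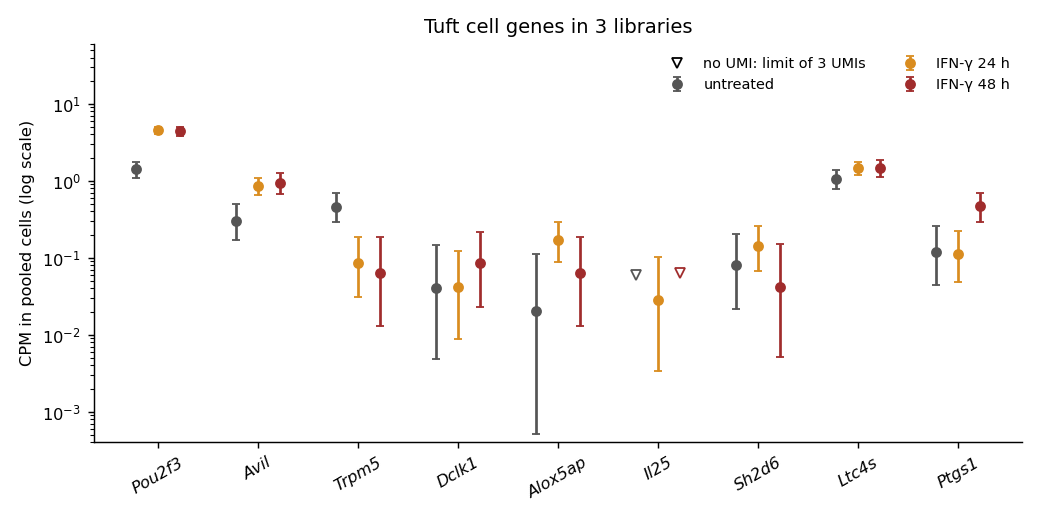
CPM of the 9 tuft cell genes in the pooled cells of each library, on a log scale, with exact 95% Poisson intervals of counting error. Open triangles mark a library without a UMI, drawn at the level that 3 UMIs would give. Pou2f3 and Avil stood higher in both IFN-γ libraries, Trpm5 lower, and Dclk1 and Il25 had at most 4 UMIs in any library.

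The genes of eicosanoid synthesis, which turns arachidonic acid into leukotrienes and prostaglandins, did not move as a block. Ltc4s, the leukotriene C4 synthase, had 52, 104 and 69 UMIs in the untreated, 24 h and 48 h cells, which is 1.04, 1.46 and 1.46 CPM. Its fold to untreated was 1.40 at both times, with intervals of 0.995 to 1.99 and 0.962 to 2.05 that included no change. With library totals rescaled by TMM factors, its log2 ratios went from 0.49 and 0.48 to 0.93 and 0.67. Whether the intervals include no change thus depends on the scaling. In counts thinned to 5000 UMIs per cell, the 48 h log2 ratio was 1.05. Ptgs1, the constitutive cyclooxygenase, had 6, 8 and 22 UMIs, or 0.120, 0.113 and 0.466 CPM. It was near the untreated level at 24 h (fold 0.934, 0.284 to 3.27) and higher at 48 h (fold 3.87, 1.52 to 11.7).

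Alox5ap, the membrane protein that hands arachidonic acid to 5-lipoxygenase, had 1 UMI without IFN-γ, 12 at 24 h and 3 at 48 h. The 24 h fold of 8.41 had an interval from 1.24 to 359, because 1 molecule stood in the denominator. Annotation places Gm19719 on the other strand of Alox5ap, Gm26542 opposite Ltc4s and Gm43621 opposite Ptgs1. The sources used here do not state how the counting treated strand.

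Trpm5 went the other way, but on very few cells. Its UMIs numbered 23 without IFN-γ, 6 at 24 h and 3 at 48 h, a log2 ratio of -2.45 (-4.04 to -1.11) and -2.86 (-5.24 to -1.14). A single untreated cell held 20 of the 23 UMIs, and 1 cell held all 6 at 24 h. The untreated cell had 133311 UMIs in all, 1 UMI of Avil and none of the other 7 members, and it fell in a cluster led by mitotic genes. Without that cell, 3 untreated UMIs were left (0.0602 CPM), against 3 UMIs in the whole 48 h library (0.0635 CPM), so the lower Trpm5 level after IFN-γ rested on that cell. Trpm5 overlaps Tssc4 on the other strand.

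The other 3 members were sparse. Sh2d6 had 4, 10 and 2 UMIs in the untreated, 24 h and 48 h cells, and 5 of the 10 at 24 h came from 1 cell. Its 24 h log2 ratio was 0.81 (-0.98 to 2.94). Dclk1 had 2, 3 and 4 UMIs. Il25, the cytokine that tuft cells use to call group 2 innate lymphoid cells, had 0, 2 and 0 UMIs, which allows up to 0.0602 CPM in untreated cells and 0.0635 at 48 h.

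Among the members with at least 10 UMIs over the 2 libraries compared, 3 of 7 were at least 2-fold higher at 24 h and 1 of 7 at least 2-fold lower. Of all genes with as many UMIs, 3.46% were at least 2-fold higher and 26.0% at least 2-fold lower at 24 h. At 48 h, 3 of 5 members were at least 2-fold higher and 1 of 5 lower, beside 5.26% and 16.6% of all genes. The members' median log2 ratio was 0.81 at 24 h, which is the ratio of Sh2d6, and 1.63 at 48 h, which is that of Avil, and that of all these genes was -0.46 and -0.18. Alox5ap, Sh2d6 and Ptgs1 had 1, 4 and 6 untreated UMIs and passed the filter only with the treated counts added. The filter favours members with high treated counts. Alox5ap and Sh2d6 did not pass at 48 h, so the medians of the 2 times cover different members. The members were also picked with these ratios known, so nothing is read from the comparison with all genes. Of the members with at least 10 UMIs in both comparisons, Pou2f3, Avil and Ltc4s were the 3 above untreated at both times, and Trpm5 was below at both. Alox5ap and Dclk1 were also above at both times, with fewer UMIs. Of all genes, 25.1% were above untreated at 24 h and 37.2% at 48 h, and the share above at both was not counted. The direction of Ptgs1 at 24 h turned from a log2 ratio of -0.10 to 0.35 with TMM scaling and to 0.05 with at most 10% mitochondrial UMIs. TMM factors of edgeR moved every ratio up, by 0.45 at 24 h and 0.19 at 48 h.

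Other genes known from tuft cells were counted by role, from a list of 60 genes found in the matrices. Of these, 51 are not among the 9 members, and 35 of them had at least 10 UMIs in the 24 h comparison and 34 in the 48 h comparison. At 24 h, 7 of the 35 were higher than untreated and 28 lower, with a median log2 ratio of -0.55. At 48 h, 12 of the 34 were higher and 22 lower, with a median of -0.46. Of all genes with as many UMIs, 25.1% were higher at 24 h and 37.2% at 48 h, with medians of -0.46 and -0.18, so nothing particular to the list is read from its counts.

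Outside the members, 1 gene was at least 2-fold higher at both times. At each time alone, 1 of the 35 list genes at 24 h and 2 of the 34 at 48 h were, beside 3.46% and 5.26% of all genes. The gene higher at both times was Tbxas1, the thromboxane synthase, with 18, 63 and 70 UMIs in the untreated, 24 h and 48 h cells. Its fold to untreated was 2.45 (1.43 to 4.40) and 4.10 (2.42 to 7.31). Its UMIs were spread over 57 cells at 24 h and 66 cells at 48 h. Tbxas1 overlaps Hipk2 on the other strand. Il4ra, a receptor chain for IL-4 and IL-13 that many epithelial cells express, was the only other list gene past 2-fold at 48 h. It was singled out after its values were seen, at 7.19, 11.6 and 18.01 CPM.

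A total of 5 genes outside the members were at least 2-fold lower at both times. At each time alone, 12 of the 35 list genes at 24 h and 9 of the 34 at 48 h were. Of all genes with at least 10 UMIs, 26.0% and 16.6% were, and nothing particular to the list is read from this. TMM factors moved every ratio up, by 0.45 at 24 h and 0.19 at 48 h. With them, Hpgds at 48 h and Ly6g6d at 24 h no longer reached 2-fold. Hpgds, the haematopoietic prostaglandin D synthase, had 491, 175 and 223 UMIs in untreated, 24 h and 48 h cells, a log2 ratio of -2.002 (-2.26 to -1.75) and -1.06 (-1.30 to -0.83). Krt23, an epithelial keratin, had 303, 123 and 53 UMIs, with log2 ratios of -1.81 and -2.44. At 24 h, 64 of the 123 Krt23 UMIs came from 1 cell. Tas1r1, a subunit of the umami taste receptor, had 130, 22 and 37 UMIs, with log2 ratios of -3.08 and -1.74. Of the untreated Tas1r1 UMIs, 90.0% came from 10 cells.

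The other 2 genes that were lower were Ly6g6d, a surface protein of the Ly6 family, and 1810046K07Rik, the mouse gene for the tuft cell coactivator OCA-T1, which binds Pou2f3 on DNA. Ly6g6d had 212, 146 and 70 UMIs in the untreated, 24 h and 48 h cells, log2 ratios of -1.05 (-1.37 to -0.74) and -1.52 (-1.93 to -1.13). 1810046K07Rik had 13, 5 and 3 UMIs, log2 ratios of -1.89 (-3.73 to -0.31) and -2.04 (-4.49 to -0.18). The gene for the coactivator was therefore lower in the libraries in which Pou2f3 was higher, at counts that leave wide intervals. TMM factors moved every ratio up, by 0.45 at 24 h and 0.19 at 48 h. With them, the 24 h interval of 1810046K07Rik includes no change, and the 48 h interval ends close to no change. No opposite movement of coactivator and factor is read from these counts.

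**Figure D2:**
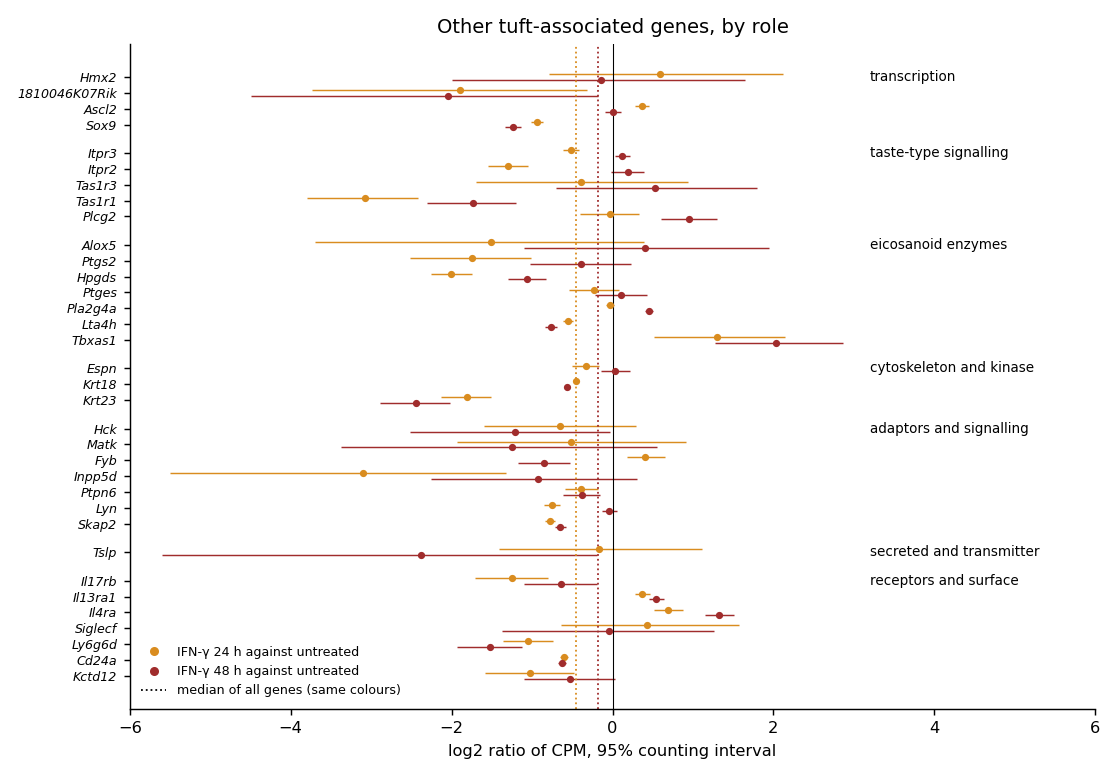
Log2 ratio of CPM to the untreated library for the tuft-associated genes outside the members that had at least 10 UMIs in both comparisons, grouped by role, with exact 95% counting intervals. Dotted lines mark the median of all genes. Tbxas1 stood above 1 at both times, and Hpgds, Tas1r1, Krt23, Ly6g6d and 1810046K07Rik stood below -1.

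Pou2f3 belongs to the POU family, whose members bind the octamer with the letters ATGCAAAT. The 250 bases before the annotated start were searched for it on both strands in the RefSeq promoters of GRCm38.p6. Of 32851 such windows, 1.60% held an octamer. None of the 7 windows of the 6 members with a RefSeq promoter (Avil, Trpm5, Dclk1, Sh2d6, Ltc4s and Ptgs1) held one. Of the wider list, 43 genes had 52 windows, and 7 of these genes held an octamer in 1 window each. Those were 1810046K07Rik, Ly6g6d, Hpgds, Sucnr1, Il4ra, Kctd12 and Itpr3. A match is a run of letters and was not tested for binding, and its absence says only that these letters are not in these bases.

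The first 2 windows below are shown because they were the only ones of the list with 2 octamers each. Both genes were lower after IFN-γ. That of Avil is shown as a window of a member that was higher and holds no octamer. The choice does not tie octamers to a direction, which was not tested. Il4ra holds 1 octamer and was higher at both times, and Trpm5 holds none and was lower at both. Each window runs 5′ to 3′ along the gene's strand and ends 1 base before the RefSeq start, with octamers of either strand in capitals. The window of 1810046K07Rik is chr9:51328919-51329168 (minus strand), with octamers that begin 86 and 55 bases before the start. That of Ly6g6d is chr17:35081240-35081489 (minus strand), in an intron of a transcript of its neighbour Ly6g6f, with octamers that begin 48 and 28 bases before the start. That of Avil is chr10:127000459-127000708 (plus strand). Ly6g6d has other RefSeq windows at chr17:35078057-35078306 and chr17:35074493-35074742, and 1810046K07Rik has another at chr9:51312670-51312919. None of these others holds an octamer.
1810046K07Rik: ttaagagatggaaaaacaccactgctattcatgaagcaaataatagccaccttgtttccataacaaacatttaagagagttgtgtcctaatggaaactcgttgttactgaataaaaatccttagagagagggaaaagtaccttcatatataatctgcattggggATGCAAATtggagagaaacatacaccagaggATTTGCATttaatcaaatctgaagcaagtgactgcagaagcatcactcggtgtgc
Ly6g6d: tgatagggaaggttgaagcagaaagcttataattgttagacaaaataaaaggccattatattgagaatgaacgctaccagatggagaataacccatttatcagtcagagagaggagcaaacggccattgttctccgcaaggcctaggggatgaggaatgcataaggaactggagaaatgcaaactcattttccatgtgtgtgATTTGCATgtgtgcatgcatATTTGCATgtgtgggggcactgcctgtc
Avil: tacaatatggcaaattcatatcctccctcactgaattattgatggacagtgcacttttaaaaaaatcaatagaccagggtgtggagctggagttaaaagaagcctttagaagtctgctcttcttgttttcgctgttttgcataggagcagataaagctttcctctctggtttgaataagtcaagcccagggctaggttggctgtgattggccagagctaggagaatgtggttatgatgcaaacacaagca

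Whether the higher levels sat in few cells or were spread over the epithelium was read from how many members a cell held. Each cell was thinned at random to 5000 UMIs, so that the libraries could be compared at 1 depth, and a cell with at least 3 of the 9 members was called co-expressing. No library had such a cell, and none had a cell with 2 members. This was 0 of 1058 untreated cells, which allows a share of up to 0.284% when 3 cells are taken as the limit of a count of 0, 0 of 917 cells at 24 h (up to 0.327%) and 0 of 2934 cells at 48 h (up to 0.102%). The upper Clopper-Pearson bounds are 0.348%, 0.401% and 0.126%. A single member was found in 13, 26 and 113 cells. The rule for naming genes enriched in co-expressing cells therefore named none.

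The same rule found rare cells of other kinds in the same libraries. At least 3 of 12 enteroendocrine genes, among them the granins Chga and Chgb, were found in 23 untreated cells (2.17%, 1.38 to 3.24), 12 cells at 24 h (1.31%, 0.678 to 2.27) and 10 cells at 48 h (0.341%, 0.164 to 0.626). Cells with at least 2 other genes of the enteroendocrine list held 87.6%, 98.3% and 88.5% of the UMIs of that list. For the 9 tuft genes there were no such cells after thinning, so the same share is 0 by construction, and without thinning cells with at least 2 of the other 8 members held 6.64% of the members' UMIs at 24 h. At least 3 of 10 goblet genes were found in 21.0%, 8.29% and 7.77% of the cells. Both lists were far more abundant than the tuft genes. In the untreated, 24 h and 48 h libraries the enteroendocrine genes summed to 195, 270 and 81.1 CPM. The goblet genes summed to 3117, 1003 and 697 CPM, and the 9 tuft genes to 3.47, 7.41 and 7.54. Finding cells by such abundant genes does not show that the rule would find weaker co-expression of tuft genes.

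**Figure D3:**
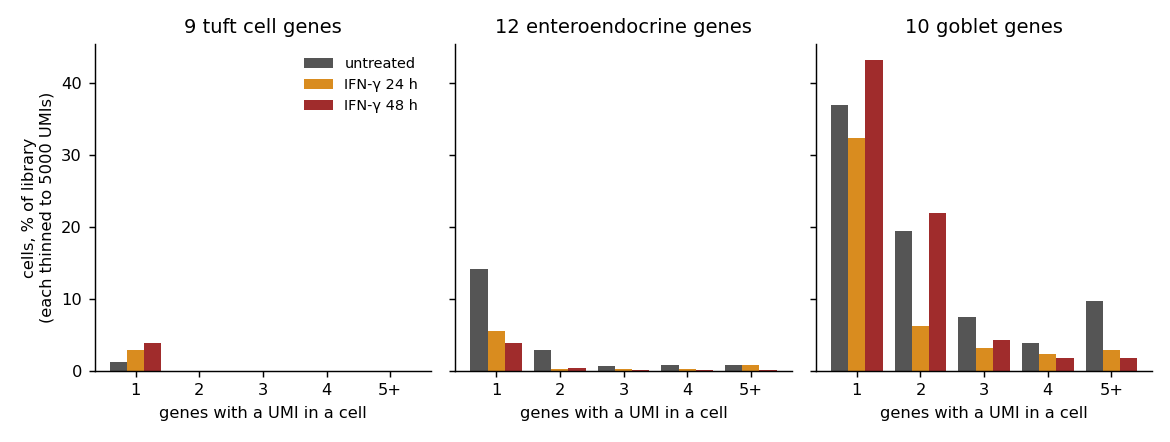
Percent of the cells of each library in which 1, 2, 3, 4 or at least 5 genes of a list had a UMI, after thinning every cell to 5000 UMIs, for the 9 tuft cell genes, 12 enteroendocrine genes and 10 goblet genes. Bars start at 0. No cell held more than 1 tuft cell gene, whereas cells with 3 or more enteroendocrine or goblet genes were present in every library.

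At full depth, without thinning, 8 of the 917 cells at 24 h (0.872%, 0.377 to 1.71) held at least 3 members, and no cell did so in the untreated or the 48 h library. All 8 were deep cells with 122419 to 265760 UMIs, against a median of 68784 in that library. All of them held Pou2f3, 7 held Avil and 5 held Ltc4s, with at most 3 UMIs of any member in a cell, and none had Trpm5, Dclk1 or Il25. Of the 8 tuft markers outside the members, 1 was found in 1 of these cells. Each of the 8 cells lay in one of the 2 proliferating-like clusters described below. Doublets were neither called nor removed, and their part in these cells was not tested.

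Pou2f3 UMIs were scattered. Of the untreated cells 63 held one or more, as did 240 at 24 h and 201 at 48 h, which is 5.95%, 26.2% and 6.85% of cells at full depth. In most of these cells there was 1 UMI, namely in 57, 184 and 193 of them, and the highest count in a cell was 3, 6 and 2. The 10 cells richest in Pou2f3 held 24.3%, 12.5% and 8.61% of its UMIs in the 3 libraries. For Neurog3, the transcription factor of enteroendocrine precursors, with 262, 114 and 92 UMIs in these libraries, the richest 10 cells held 89.7%, 98.2% and 66.3%. Of the untreated Neurog3 UMIs, 9.16% lay in cells with at least 2 other genes of the enteroendocrine list, against 94.7% at 24 h and 47.8% at 48 h.

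At an equal depth of 5000 UMIs, Pou2f3 was found in 2 cells of the untreated library (0.189%, 0.0229 to 0.681), 16 cells at 24 h (1.74%, 1.001 to 2.82) and 65 cells at 48 h (2.22%, 1.71 to 2.82). In this single random draw, the intervals of both treated libraries lay above that of the untreated one. They leave out the spread between draws, and the untreated share rests on 2 cells. In the thinned counts the log2 ratio of Pou2f3 to untreated was 3.21 at 24 h and 3.55 at 48 h. As the mean over cells of the level in each, without thinning, it was 1.87 and 2.01. For Avil the shares were 0.189%, 0.763% and 0.443%, with intervals that overlapped, and for Ltc4s 0.378%, 0.109% and 0.784%. The order of Ltc4s shares differed from that of its pooled levels, and no order is read from it.

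Pou2f3 was also found in goblet-like cells. At full depth, the untreated ones held 11 Pou2f3 UMIs (1.60 CPM). At 5000 UMIs it was found in 0 of 134, 3 of 82 and 9 of 238 of these cells in the untreated, 24 h and 48 h libraries, which is 3.66% at 24 h and 3.78% at 48 h. Their median depth before thinning was 58213 and 10396 UMIs. The difference from the other cells was not tested. The share in all cells was not above that in goblet-like cells at either time. It is not read as a share of tuft cells, and the source of these UMIs was not tested.

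Pairs of members in 1 cell were few. Pou2f3 and Avil were found together in 0 of the 15 Avil-positive untreated cells, in 15 of 39 at 24 h and in 4 of 39 at 48 h. Pou2f3 and Ltc4s shared 10 of the 51 Ltc4s-positive untreated cells, 34 of 86 at 24 h and 5 of 68 at 48 h. Of all cells, 5.95%, 26.2% and 6.85% held Pou2f3 in the untreated, 24 h and 48 h libraries. Whether the overlaps differ from these shares was not tested. These tallies use all UMIs and so rise with the depth of the cells, which was greatest at 24 h.

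The level of Pou2f3 lay close together in shallow and deep cells at 48 h, where cells with 5000 to 10000 UMIs had 4.28 CPM (3.07 to 5.80) and cells above 50000 had 4.23 (2.50 to 6.68). At 24 h, cells above 50000 UMIs had 4.67 (4.16 to 5.23) and those with 20000 to 50000 had 3.35 (1.78 to 5.73). Cells of that library with 10000 to 20000 UMIs had 1.625 (0.335 to 4.75), and those with 5000 to 10000 had 4.22 (0.870 to 12.3). In untreated cells, those above 50000 UMIs had 1.73 (1.33 to 2.21) and held 63 of the 70 UMIs, while cells with 20000 to 50000 UMIs had 0.464 (0.126 to 1.19). Among cells above 50000 UMIs, both IFN-γ libraries thus lay above the untreated one. Below 20000 UMIs, the 24 h intervals overlapped those of untreated cells of the same depth, as did the 48 h interval at 5000 to 10000 UMIs.

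Clustering without the tuft genes gave 8 clusters, none of which had a tuft marker among its 10 leading genes or any of the 17 tuft markers enriched. With these genes left out, they could not form a cluster of their own. A leading or enriched gene also had to be detected in a set share of a cluster's cells. A few tuft cells inside a larger cluster would not meet this, so their absence is not read from the clusters. Clusters 1 and 2 were proliferating-like, led by Nusap1, Ube2c and Plk1 and by Ung, Ccne2 and Cdc6. Cluster 4 was goblet-like (Spink4, Muc2, Tff3), cluster 5 colonocyte-like (Krt20, Slc26a3, Car1) and cluster 6 enteroendocrine-like (Chgb, Chga, Tph1). Clusters 0, 3 and 7 stayed unnamed. In the pooled cells of the whole libraries, 10 of 10 goblet genes and 12 of 13 colonocyte genes were lower after IFN-γ at both times. Of all genes with at least 10 UMIs, only 25.1% at 24 h and 37.2% at 48 h were higher. The goblet-like cluster held 13.8%, 6.68% and 7.42% of all UMIs in the untreated, 24 h and 48 h libraries. Whether cells within the named clusters differ between libraries was not tested.

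Pou2f3 was higher than untreated at both times in each of the 6 clusters with at least 10 Pou2f3 UMIs in both comparisons. Clusters 0, 3 and 5 had 4, 8 and 6 untreated UMIs and passed only with the treated counts added. This filter favours clusters with high treated counts, so nothing is read from the number of clusters. In proliferating-like cluster 1 it stood at 1.57, 4.59 and 3.90 CPM in the untreated, 24 h and 48 h cells, and in proliferating-like cluster 2 at 2.10, 5.74 and 4.68. In the goblet-like cluster it stood at 1.60, 4.84 and 6.56, and in the colonocyte-like cluster at 0.839, 2.97 and 4.66. The unnamed cluster 0, of shallow cells, had 0.620, 1.74 and 4.22, and unnamed cluster 3 had 1.47, 4.21 and 4.39. The interval of the ratio to untreated lay above 0 at both times in all of these but cluster 0, where the 24 h log2 ratio was 1.49 (-0.49 to 3.71).

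The share of the Pou2f3 UMIs in a cluster was near its share of all UMIs in some clusters and not in others. At 24 h, cluster 1 held 43.0% of the Pou2f3 UMIs and 42.3% of all UMIs, and the goblet-like cluster held 7.17% and 6.68%. Cluster 2 held 32.1% and 25.3%, the colonocyte-like cluster 7.48% and 11.4%, and cluster 0 held 2.18% and 5.66%. The 24 h level in cluster 0 (1.74 CPM, 0.699 to 3.58) was below that of the whole library. At 48 h, cluster 0 held 23.9% and 25.1%, and the goblet-like cluster 11.005% and 7.42%. The enteroendocrine-like cluster had 0, 2 and 1 UMIs of Pou2f3, too few for a level.

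Avil was less even. In the goblet-like cluster it had 0 UMIs without IFN-γ, 11 after 24 h and 7 after 48 h. This is 5.30-fold and 4.57-fold higher when the untreated count is set to a floor of 3 UMIs in that cluster. These folds leave out the counting error of the treated UMIs, so they are not lower bounds. The goblet-like cells held 18.03% of the Avil UMIs at 24 h and 15.9% at 48 h, with 6.68% and 7.42% of all UMIs. In the colonocyte-like cluster Avil had 3, 3 and 2 UMIs. Ltc4s in the goblet-like cluster was 1.16, 3.58 and 1.43 CPM, with a 24 h log2 ratio of 1.62 (0.33 to 3.04) and a 48 h log2 ratio of 0.29 (-1.67 to 2.09). These cluster values rest on few UMIs and were picked out after they were seen.

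**Figure D4:**
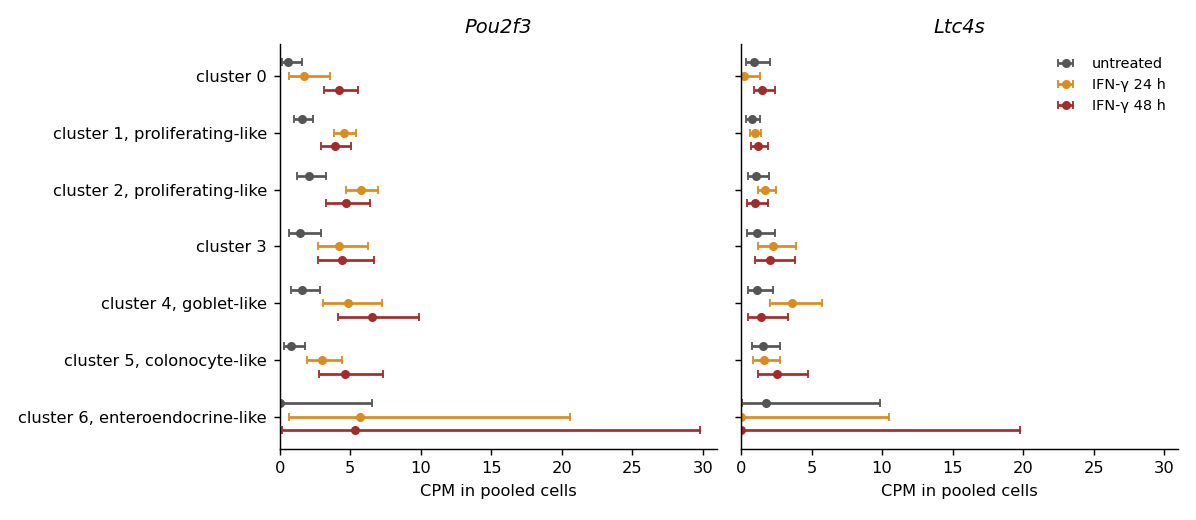
CPM of Pou2f3 and Ltc4s in the pooled cells of each cluster and library, with exact 95% Poisson intervals of counting error. Pou2f3 was higher in both IFN-γ libraries in clusters 0 to 5, and the enteroendocrine-like cluster had at most 2 Pou2f3 UMIs in a library.

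Barcodes with fewer than 2000 UMIs were taken as background. The lowest had 1390, 851 and 1624 UMIs in the untreated, 24 h and 48 h libraries, so their range differed, and whether they held free RNA or shallow cells was not tested. Pou2f3 made up 3.68 CPM there in the untreated library (3.02 to 4.45), 6.23 at 24 h (5.21 to 7.38) and 8.50 at 48 h (7.41 to 9.71), which in each library was above its share in the cells. Per barcode the cells held more. In 100 cells there were 6.62, 35.0 and 7.12 Pou2f3 UMIs in the untreated, 24 h and 48 h libraries, against 0.608, 0.832 and 1.52 in 100 background barcodes. This is 10.9, 42.1 and 4.69 times as many per cell as per background barcode, in cells that held far more UMIs of every kind.

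The other members differed in this. Alox5ap was, like Pou2f3, higher in the background than in cells in all 3 libraries, with 0.172, 0.187 and 0.235 CPM in the background of the untreated, 24 h and 48 h libraries against 0.0201, 0.169 and 0.0635 CPM in cells, but from at most 6 background UMIs a library. Avil had 0.309, 0.140 and 0.588 CPM in the background of the untreated, 24 h and 48 h libraries, which at 24 h and 48 h is below its level in cells. Ltc4s had 1.17, 0.749 and 1.14 and Ptgs1 0.0344, 0.0468 and 0.235. Dclk1 had 10, 5 and 2 background UMIs, against 2, 3 and 4 in cells. At 5000 UMIs per cell, the shares of Pou2f3-positive cells given above may hold such background transcripts, and their part was not tested.

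**Figure D5:**
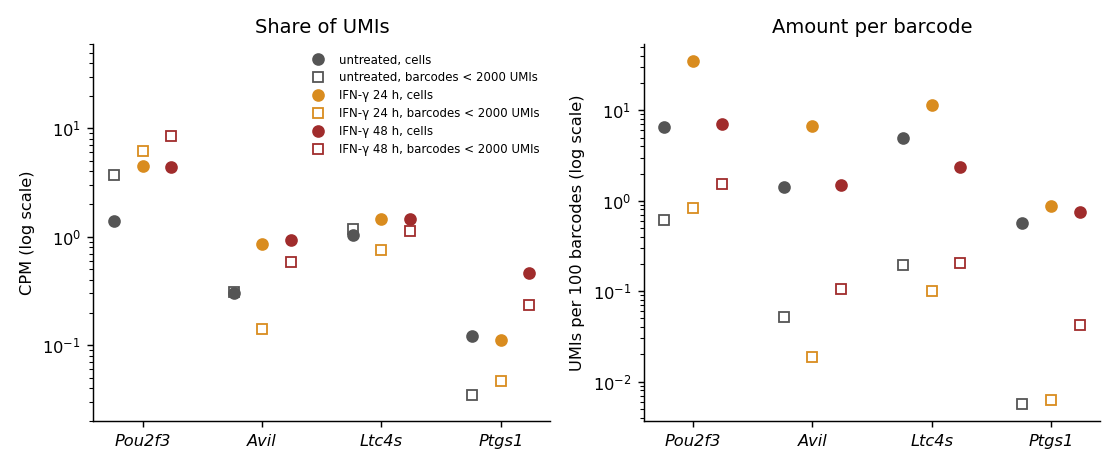
Pou2f3, Avil, Ltc4s and Ptgs1 in cells (filled circles) and in barcodes with fewer than 2000 UMIs (open squares) of each library, as CPM (left) and as UMIs per 100 barcodes (right), both on log scales. For Pou2f3 the background had the larger share of UMIs in every library, and cells had more UMIs per barcode.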

How the data were processed

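The authors made 3' single-cell libraries, mapped reads to mm10 with Cell Ranger 6.0.1 (per the labels) and deposited raw UMI counts per gene and barcode, without normalization, for 1 library per condition. The matrices held 20841, 17227 and 22478 barcodes, including background. No file was left out. The members, lists and settings were chosen with earlier results of these data known. For each library, counts were summed over the kept cells and divided by their total. Ratios have exact conditional binomial intervals, levels exact Poisson intervals and shares Clopper-Pearson intervals (scipy 1.17.1), all at 95%. Ratios are given for genes with at least 10 UMIs over both libraries. A count of 0 was set to a floor of 3 UMIs. All 9 members are named, with the genes of the wider list that differed at least 2-fold in 1 direction at both times, and at most 4 genes of each marker list. Clusters came from Seurat 5.3.0 with CCA integration, 1990 variable genes left after the tuft genes were taken out of 2000, 20 principal components and a resolution of 0.5. A cluster was named when at least 3 markers of a list were enriched and one was among its 10 leading genes. TMM factors came from edgeR 4.0.16. Gene positions came from GENCODE vM21 (GRCm38) and promoters from RefSeq. The ratios, the thinning and the rule for co-expressing cells were tested on simulated data. For that rule, cells were given every member at a level far above the pooled levels seen here. Whether the rule would find weaker co-expression was not tested. Depth sets the precision: 1 UMI was 0.0141 to 0.0212 CPM.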

Additional observations from a re-analysis of the deposited data

Results flagged for a closer look

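Ptgs1 differed in direction between the times. Its log2 ratio to untreated was -0.10 at 24 h, from 8 against 6 UMIs, and 1.95 at 48 h, from 22 UMIs. The difference between the times was not tested, and the direct log2 ratio of 48 h to 24 h was 2.05 with a counting interval of 0.83 to 3.43. Both ratios share the untreated library.

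Pou2f3 was also higher after IFN-γ in the barcodes with fewer than 2000 UMIs, which enter no comparison of cells. Its log2 ratio to untreated there was 0.76 at 24 h and 1.21 at 48 h, from 107, 133 and 217 UMIs in the untreated, 24 h and 48 h libraries. In cells the log2 ratios were 1.68 and 1.65. The part of background transcripts in the cells' level was not tested.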

How the results depend on the processing

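No paired analysis was possible because each condition had 1 library. For the same reason no replicate could be left out, and the spread between cultures is unknown. Thinning to 5000 UMIs moved the members' median log2 ratio at 24 h from 0.81 to 2.71, over the 2 members with 10 UMIs left, Pou2f3 (3.21) and Avil (2.21). The log2 ratio of Pou2f3 at 48 h became 3.55. Both Pou2f3 values come from a single random draw that left Pou2f3 in 2 untreated cells. As the mean over cells of the level in each, without thinning, the log2 ratios of Pou2f3 were 1.87 at 24 h and 2.01 at 48 h. Members higher at both times numbered 5 in place of 3 with at least 1 UMI in each library as the filter, and 2 to 4 under the other settings. Nothing is read from these numbers. Without thinning, 0.872% of the cells at 24 h held 3 members and 6.64% of the member UMIs lay in cells with 2 others. With 1 other member required, 2.09% of member UMIs lay in such cells at 24 h and 1.69% at 48 h. At resolution 1, Pou2f3 was higher at both times in 6 of the 6 clusters with 10 UMIs in both comparisons. There too, clusters with fewer than 10 untreated UMIs passed through their treated counts, so nothing is read from that number. The other 9 of the 15 clusters had fewer, among them cluster 11 (2.81, 3.75 and 1.54 CPM) and cluster 1 (0.623, 0.416 and 2.82 CPM) in the untreated, 24 h and 48 h cells. Of the single members' values, 84 stayed within their counting interval under the alternatives and 5 moved outside it, and none of the latter changed sign. The 84 include values that could not move. Leaving out cells with 2 others took out no cell, and asking for 1 UMI in each library changed only which members were used. The settings that left out the richest cell of a gene or took at least 20000 UMIs per cell were chosen after seeing the data, and 18 values of members stayed within their interval under them. Trpm5 has no value without its richest cell, with fewer than 10 UMIs left.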
